A study of Bos taurus with 6 samples.

Results

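The tight junction genes examined here are the rows of the gene table whose symbol names a claudin, occludin or another MARVEL protein, a junctional adhesion molecule or a related immunoglobulin-like protein, or a cytoplasmic scaffold of the junction. The symbols picked 41 of the 47249 rows, which comprised 22 claudins, 4 occludin and MARVEL genes, 5 immunoglobulin-like genes and 10 scaffolds. The testes came from untreated Wandong cattle (*Bos taurus*), with 3 immature calves of 3 months and 3 mature bulls of 3 years, and each animal gave 1 library of total RNA depleted of ribosomal RNA. The study compared the immature with the mature testis. Levels are given as FPKM, that is fragments scaled to transcript length and to the size of the library, so values of different genes are on 1 scale per length. The tables hold no counts, the number of fragments behind a value is unknown, and the spread between animals was used as the error.

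Tight junctions seal neighbouring cells to each other. Claudins form the strands of the seal, occludin and tricellulin are tetraspan proteins placed along the strands and at three-cell corners, junctional adhesion molecules lie beside them, and PDZ-domain scaffolds such as the zonula occludens proteins tie all of them to actin. In the testis the seal lies between Sertoli cells near the base of the seminiferous tubule, where it is called the blood-testis barrier. It closes around puberty and separates the later germ cells from the blood. CLDN11 is required for it in the mouse, and it is also a claudin of myelin in the brain.

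The library labelled calf 3 stood apart from the other 5 in the markers of its tissue, so results are given with and without it, and its part in each result was not tested. Calf 1 and calf 2 are called the first 2 calves where they are set against it. The oligodendrocyte list (10 genes) summed to an FPKM of 13800 in calf 3 and to between 31.1 and 34.2 in the others, and all 10 genes were highest in calf 3. The astrocyte list (7 genes) summed to 2950 against 82.2 to 169, and the neuron list (8 genes) to 877 against 7.82 to 17.1. Of the Sertoli cell list, 13 of 16 genes were matched, and 3 defining markers (GATA4, FSHR and WT1) had a listed value of 0 in calf 3. The Sertoli sum was 2870 and 2730 in the first 2 calves, 894 in calf 3 and 431 to 508 in the bulls. In calf 3 this sum lay mostly in CLU (422) and TF (426), with AMH at 0.340 and INHA at 0.766. The 6 matched of 8 Leydig cell genes summed to 0.502 in calf 3 and to between 1110 and 2600 elsewhere. The list of spermatocyte and spermatid genes (15 genes) summed to 13800 to 15700 in the bulls and to 3.96 to 24.5 in the calves. These lists are whole-tissue levels, and in bulk RNA fewer cells of a type and less RNA per cell cannot be told apart. The bull samples hold far more germ cell RNA than the calf samples, so lower FPKM of a somatic gene in bulls is a lower share of the library and not a count per cell.

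Bulls were compared with calves by a linear model of log2(FPKM + 1) fitted with limma over all genes. A gene counted as called when its log2 fold change, which is the bull mean less the calf mean on that scale, reached 1 in either direction with a Benjamini-Hochberg adjusted p under 0.05. Adding 1 before taking logs understates changes of low genes. A gene entered the fit if 3 or more libraries had it at 1 FPKM or above, and 23 of the 41 did. CLDN7 and CLDN34 passed only through the bulls, so they had to differ. Called in either direction were 7 of the 23 genes with all libraries, where 45.3% of the 18115 genes tested were, and 9 without calf 3, where 51.5% were. With all libraries, 3 of the 23 were called higher in bulls (CLDN34, MAGI1 and TJP3; 13.0%, where 35.7% of all genes tested were called higher) and 4 were called lower (CLDN5, MPDZ and JAM2 among them; 17.4%, where 9.61% were). Without calf 3, 3 were called higher (CLDN11, CLDN34 and MAGI1; the background was 37.9%) and 6 lower (CLDN5, MPDZ, CXADR, CGNL1, MARVELD1 and JAM2; 26.1%, where the background was 13.6%). Thus 5 genes carried the same call with and without calf 3, which were CLDN34, MAGI1, CLDN5, MPDZ and JAM2. The median log2 fold change of the 23 genes was −0.17, and −0.37 without calf 3, where that of all genes tested was 0.43 in both fits. After quantile normalization, which made the distribution of values the same in every library and moved the median of all genes by −0.69, 0 of the 23 genes were called higher in bulls (1, CLDN34, was higher at an unadjusted p under 0.05) and 9 lower, where 46.2% of all genes were called in either direction, 21.1% higher and 25.1% lower. With calf 3 also left out, 1 was called higher and 11 lower, where 22.4% of all genes were called higher, 29.1% lower and 51.5% in either direction.

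**Figure D1:**
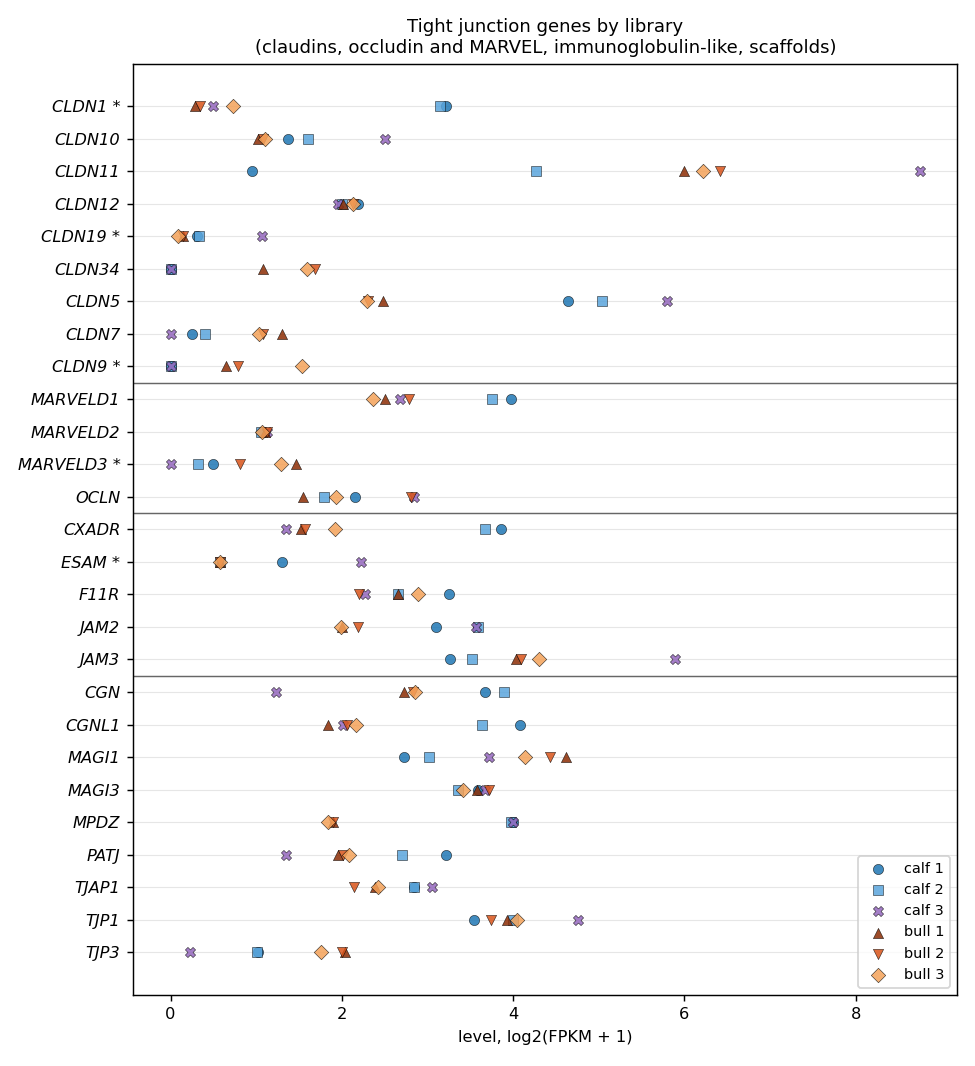
Level of the tight junction genes that reached an FPKM of 1 in any library, with 1 gene left out, as log2(FPKM + 1) on the x axis, with 1 point per library and the genes on the y axis grouped by role. An asterisk marks genes that did not pass the filter. The bulls lie close together for most genes, and calf 3 lies apart from calf 1 and calf 2 for genes such as CLDN11, JAM3, CGN and CXADR.

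The claudin that led the claudin RNA differed between the young and the mature testis. CLDN5 was the most abundant claudin in calf 1 and calf 2, with 60.1% and 48.5% of the summed claudin FPKM. In bulls CLDN11 held 82.2%, 85.2% and 82.7%. The summed claudin FPKM was 39.9 and 65.8 in calf 1 and calf 2 and 76.4 to 98.6 in the bulls. In calf 3 it was 494, of which CLDN11 made 86.9%.

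CLDN11 (ENSBTAG00000019060, chromosome 1, 96999962 to 97014928), the claudin that Sertoli cells need for the barrier, differed widely among the calves, with 0.940, 18.2 and 429 FPKM in calf 1, calf 2 and calf 3. It was 62.8, 84.0 and 73.3 in bull 1, bull 2 and bull 3. All bulls lay above calf 1 and calf 2 and below calf 3, so the groups as labelled overlapped. Over all libraries the difference was within the spread of the calves (log2 fold change 1.55, SE, the standard error, 1.86, limma, adjusted p = 0.509). Without calf 3 CLDN11 was called higher in bulls (3.60, SE 0.88, adjusted p = 0.0101), and without calf 1 the value was −0.30. The level in calf 3 stood beside an FPKM of 3861 for MBP, a myelin gene, which was at 2.69 and 3.24 in calf 1 and calf 2. Calf 1 and calf 2 themselves differed 19.3-fold in CLDN11, and no other of the 23 genes differed between them by as much as 2-fold on the scale of FPKM + 1. Transcription factors of Sertoli cells lay closer together in these calves, with SOX9 at 21.9 and 25.6, WT1 at 17.7 and 25.4 and GATA4 at 16.3 and 23.1. In the bulls SOX9 was at 9.99 to 10.8. The ratio of CLDN11 to SOX9 within a library was 0.0429 in calf 1, 0.710 in calf 2, and 6.28, 8.41 and 6.79 in the bulls. In calf 3 it was 31.4, above all bulls, but WT1 and GATA4 were listed at 0 there. SOX9 alone therefore cannot be taken as a measure of Sertoli cells in calf 3. Each bull lay above calf 1 and calf 2 in this ratio. The ratio of CLDN11 to WT1 was 0.0531 and 0.716 in calf 1 and calf 2 and 8.16 to 10.5 in the bulls. The ratio to GATA4 was 0.0577 and 0.789 against 14.9 to 20.0. Neither can be formed for calf 3. SOX9, WT1 and GATA4 were themselves lower in bulls without calf 3 (log2 fold changes −1.13, −1.36 and −1.98). With CLDN11 higher in bulls than in calf 1 and calf 2, these ratios had to be higher too. The part of Sertoli cell content in the CLDN11 values was not tested.

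**Figure D2:**
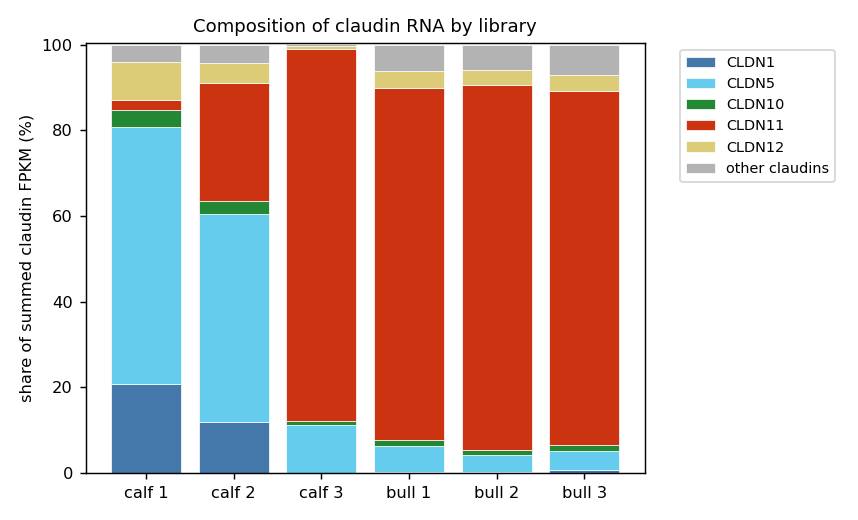
Share of each claudin in the summed FPKM of the 22 claudins (y axis, %), with 1 bar per library. CLDN5 and CLDN1 make up most of the bar in calf 1, CLDN5 the largest part in calf 2, and CLDN11 makes between 82.2% and 86.9% in calf 3 and the bulls.

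CLDN5 (ENSBTAG00000022020, chromosome 17, 72734534 to 72737588), a claudin best known from the endothelium of the blood-brain barrier and also described in Sertoli cells of the mouse, moved the other way. Calf 1, calf 2 and calf 3 had 24.0, 31.9 and 54.7 FPKM, and the bulls 4.60, 3.96 and 3.91. All calves lay above all bulls, and CLDN5 fell by 2.80 on the log2 scale (SE 0.31, limma, adjusted p = 0.000541), or by 2.48 without calf 3 (SE 0.16, adjusted p = 3.64e-05). The 10 genes of the endothelial list summed to 38.5, 17.3 and 61.8 in the calves and to 19.3, 22.0 and 25.1 in the bulls. With all libraries 2 of them (TIE1 and ROBO4) were called lower, where 9.61% of all genes tested were. Without calf 3 this was 1 (ROBO4), where 13.6% were. Calf 2 had less of this endothelial sum than calf 1 but more CLDN5. The ratio of CLDN5 to CDH5, the endothelial cadherin, was 5.78, 21.9 and 9.18 in the calves and 2.57, 1.65 and 1.69 in the bulls. The ratio to SOX9 was 1.09 and 1.25 in calf 1 and calf 2 and 0.363 to 0.460 in the bulls. Which cells held the CLDN5 RNA was not tested.

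CLDN1 (ENSBTAG00000013148, chromosome 1, 76973808 to 76989396), a claudin of many epithelia, made 20.7% and 11.9% of the summed claudin FPKM in calf 1 and calf 2. CLDN11 made 2.36% and 27.6% there. The level of CLDN1 was 8.26 and 7.83 FPKM in the first 2 calves, 0.410 in calf 3 and 0.220, 0.268 and 0.663 in the bulls. It missed the filter because only calf 1 and calf 2 reached an FPKM of 1. In a fit without the filter and without calf 3, chosen after the values were seen, CLDN1 was lower in bulls by a log2 fold change of −2.72 (SE 0.19, limma, adjusted p = 0.000443, where 22.7% of 44287 genes were called in either direction and 6.22% lower). With calf 3 in that fit it was not called (−1.83, adjusted p = 0.123). The members of the epithelial list (9 genes) went in different directions. EPCAM was at 1.85 to 5.96 in the calves and 84.0 to 102 in the bulls, and carried most of the sum of the list there (100 to 115, against 30.0, 15.2 and 2.16 in the calves). KRT19 lay as CLDN1 did, with 16.3 and 2.20 in the first 2 calves, 0 in calf 3 and 0.412 to 0.742 in the bulls, and KRT7, KRT5 and ESRP1 were likewise higher in the first 2 calves than in any bull. The part of epithelial cells in the CLDN1 values was not tested.

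**Figure D3:**
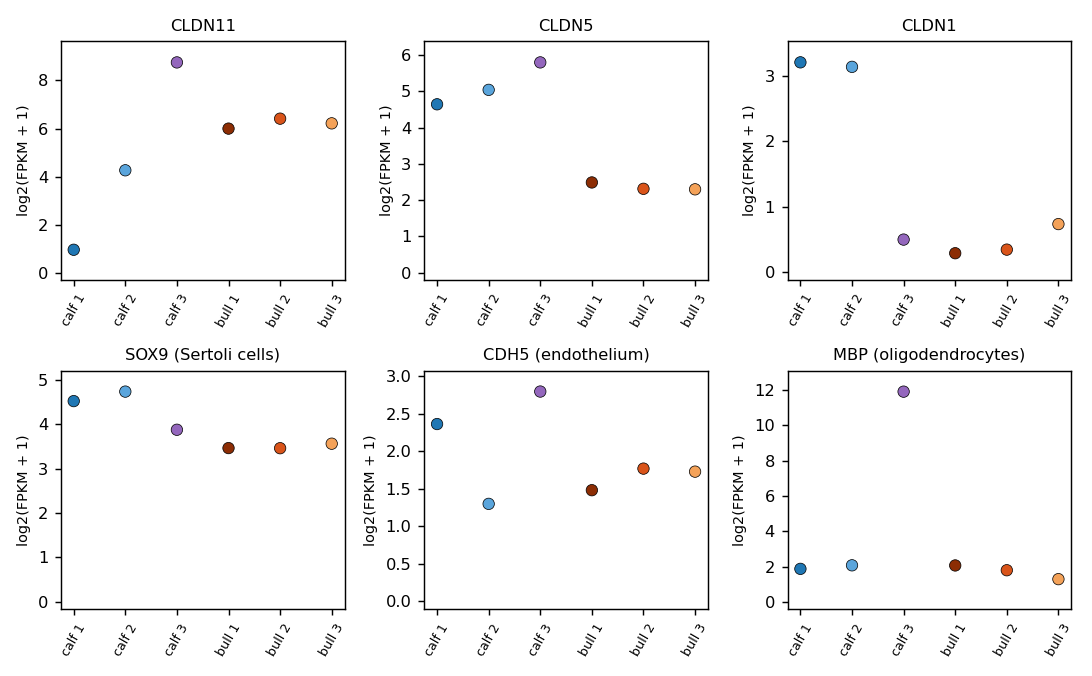
Level of CLDN11, CLDN5 and CLDN1 and of a marker each of Sertoli cells (SOX9), endothelium (CDH5) and oligodendrocytes (MBP), as log2(FPKM + 1) on the y axis for each library on the x axis. CLDN11 is lower in calf 1 and calf 2 than in the bulls while SOX9 is lower in bulls, and MBP is high in calf 3 alone.

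A few minor claudins were at low levels in bulls and near 0 in calves. CLDN34 was listed at 0 in all calves and had an FPKM of 1.11, 2.21 and 2.02 in the bulls. The log2 fold change was 1.45 with and without calf 3 (adjusted p = 0.000778 with it, limma), and 0.49 after quantile normalization, where the call was lost. An assembled transcript unit that covers the whole CLDN34 locus had 13.4, 19.2 and 25.4 in the bulls and at most 0.0929 in the calves. In the transcript table the annotated entry of CLDN34 was listed at 0 in all 6 libraries, and the level of the bulls lay in assembled entries, 1 of which (1.01, 1.72 and 2.02) held most of it. Reads of the CLDN34 row and of that unit cannot be told apart, since the sources used here do not say whether counting used the strand. CLDN7, an epithelial claudin that binds EPCAM, was at 0.188, 0.319 and 0 in the calves and at 1.46, 1.12 and 1.04 in the bulls. Of the epithelial list, EPCAM and GRHL2 were called higher in bulls and none was called lower, while KRT5, KRT7, KRT19 and ESRP1, which did not pass the filter, lay lower in bulls than in the first 2 calves. Their part in the CLDN7 values was not tested. All bulls lay above all calves in CLDN7, and the log2 fold change of 0.92 (adjusted p = 0.00218) was under the size required for a call, except without calf 2 (1.01) or with 0.1 in place of 1 added before the log (2.50), where it was called. Both CLDN34 and CLDN7 passed the filter only through the bulls, so their FPKM had to be higher in bulls. CLDN9 was listed at 0 in the calves and at 0.565, 0.730 and 1.89 in the bulls and did not pass the filter.

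CLDN10 and CLDN12 were not called. CLDN10, known from kidney and glands, had 1.58, 2.05 and 4.68 in the calves and 1.03, 1.11 and 1.15 in the bulls, and all calves lay above all bulls (log2 fold change −0.76, limma, adjusted p = 0.0822). It was called lower after quantile normalization (−1.58). In the transcript table, the entry CLDN10-202 fell from 1.26, 1.52 and 2.75 in the calves to between 0.00610 and 0.0576 in the bulls (−1.43, adjusted p = 0.00159). This entry was singled out after its values were seen and passed the filter only through the calves, so it had to be lower in bulls. What was left in bulls lay in other entries, and the CLDN10 locus overlaps DZIP1, which had 27.0 to 28.9 in bulls. CLDN12 lay between 2.87 and 3.54 in all 6 libraries, a difference smaller than the spread between calves. Its entries, looked at after their values were seen, went opposite ways. CLDN12-201 had 3.53, 3.00 and 2.87 in the calves and 2.26, 2.55 and 2.60 in the bulls and was not called. An assembled entry was at most 0.0115 in the calves and 0.774 to 0.820 in the bulls. CLDN19, a claudin of myelinating Schwann cells and kidney, reached 1.09 in calf 3 and at most 0.262 elsewhere.

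The remaining 13 claudins, CLDN2 to CLDN4 among them, stayed below an FPKM of 1 in all libraries. Their highest values lay between 0.0302 and 0.965. CLDN3, described in the barrier of the mouse, was at 0.255 and 0.553 in the first 2 calves, 0.0917 in calf 3 and 0.301, 0.0335 and 0.0411 in the bulls. The groups overlapped in CLDN3, and at this level without counts no difference can be read. Of the 13, 4 were listed at 0 in all bulls (CLDN16, CLDN17, CLDN23 and CLDN25).

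Occludin and tricellulin showed no difference between the ages that exceeded the spread. OCLN, the first tight junction membrane protein found, had 3.43, 2.46 and 6.20 in the calves and 1.93, 6.01 and 2.80 in the bulls, so bull 2 lay near calf 3 and apart from the other bulls (log2 fold change −0.17, SE 0.42, limma, adjusted p = 0.761). MARVELD2, the gene of tricellulin, lay between 1.08 and 1.19 in all 6 libraries (0.01, SE 0.10, adjusted p = 0.921). After quantile normalization, which shifted the median of all genes by −0.69, MARVELD2 had −0.92 (adjusted p = 0.00129), under the size required. MARVELD1, a MARVEL gene of less certain place at the junction, had 14.7 and 12.5 in the first 2 calves, 5.42 in calf 3 and 4.66, 5.89 and 4.17 in the bulls. It was called lower only when calf 3 was left out (−1.31, SE 0.17, adjusted p = 0.000638) or the libraries were rescaled (quantile normalization −1.51, median of ratios −1.17), against −0.92 (adjusted p = 0.0794) with all libraries. MARVELD3 was at 0.404, 0.248 and 0 in the calves and at 1.75, 0.758 and 1.44 in the bulls and did not pass the filter.

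Among the immunoglobulin-like genes, JAM2 was lower in bulls with and without calf 3. JAM2 (ENSBTAG00000000603, chromosome 1, 10702387 to 10787934), a junctional adhesion molecule of endothelium and Sertoli cells, had 7.56, 11.03 and 10.8 in the calves and 3.01, 3.58 and 2.96 in the bulls. All calves lay above all bulls, and JAM2 fell by 1.36 (SE 0.20, limma, adjusted p = 0.00196), or by 1.28 without calf 3. JAM3, whose protein binds JAM2 and is needed for the polarity of spermatids in the mouse, had 8.56, 10.5 and 58.2 in the calves and 15.4, 16.1 and 18.8 in the bulls. The bulls lay above calf 1 and calf 2 and below calf 3, and the log2 fold change was −0.08 (adjusted p = 0.936) with calf 3 and 0.76 (SE 0.14, adjusted p = 0.00342) without it, under the size required for a call.

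CXADR (ENSBTAG00000004869, chromosome 1, 19437777 to 19502580), the coxsackievirus and adenovirus receptor, which is also a junction protein of epithelia, had 13.5 and 11.7 in calf 1 and calf 2 against 1.87, 1.98 and 2.78 in the bulls. Calf 3, at 1.54, lay below all bulls. CXADR was not called with all libraries (−1.28, limma, adjusted p = 0.161) and was called lower without calf 3 (−2.09, SE 0.18, adjusted p = 0.000106) and, with all libraries, after quantile normalization (−2.16, adjusted p = 0.0308). F11R, the gene of JAM-A, lay between 3.83 and 8.55 in the calves and between 3.61 and 6.39 in the bulls and was not called. ESAM, an endothelial member of the family, had 1.47, 0.494 and 3.67 in the calves and 0.487 to 0.497 in the bulls, so calf 2 was at the level of the bulls. The endothelial sum was likewise lowest in calf 2 among the calves (17.3), but it was higher in the bulls (19.3 to 25.1) than in calf 2. The part of endothelial cells in the ESAM values was not tested.

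The scaffolds were all above the filter and moved in both directions. MPDZ, a protein of many PDZ domains that binds claudins and JAM proteins, differed between the ages with little spread within them, with 14.99, 14.7 and 14.9 in the calves and 2.71, 2.72 and 2.57 in the bulls. All calves, calf 3 among them, lay close to each other and far above the bulls. MPDZ fell by 2.11 (SE 0.14, limma, adjusted p = 7.91e-05), and by the same amount without calf 3. PATJ, its close relative in the Crumbs polarity complex, had 8.33, 5.52 and 1.54 in the calves and 2.89, 3.04 and 3.23 in the bulls. It was not called, with −0.41 (adjusted p = 0.505) over all libraries and −0.94 (adjusted p = 0.00426) without calf 3. Quantile normalization without calf 3 called it lower (−1.55, adjusted p = 0.000892).

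CGN and CGNL1 encode cingulin and paracingulin, which link the junction to actin and microtubules. CGNL1 had 15.9 and 11.4 in the first 2 calves, 3.05 in calf 3 and 2.59, 3.18 and 3.47 in the bulls. It was called lower in bulls without calf 3 (−1.83, SE 0.19, limma, adjusted p = 0.000238) but not with it (−1.22, adjusted p = 0.102), except after quantile normalization (−1.93, adjusted p = 0.0248). CGN had 11.8 and 13.9 in the first 2 calves, 1.36 in calf 3 and 5.63, 6.11 and 6.25 in the bulls, and its log2 fold change of −0.98 without calf 3 (adjusted p = 0.000746) was just under the size required. Quantile normalization without calf 3 called CGN lower (−1.56, adjusted p = 8.99e-05). For CXADR, CGN, CGNL1, PATJ and MARVELD1, calf 3 lay at least 2-fold below calf 1 and calf 2 on the scale of FPKM + 1. These are 5 of the 23 genes (21.7%, where 15.4% of all genes tested lay that far below). Without calf 3, 8 of the 13 matched Sertoli genes were called lower in bulls, where 13.6% of all genes tested were. In that fit 1, INHBB, was called higher, where 37.9% were, and GDNF did not pass the filter. With all libraries 1, CLU, was called lower (9.61% of all genes tested were) and 1, INHBB, higher (35.7% were). The part of Sertoli cell content in the fall of the scaffolds was not tested. In calf 3, 4 genes, CLDN10, CLDN11 and JAM3 among them, lay at least 2-fold above (17.4%, where 13.8% of all genes tested did).

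MAGI1 (ENSBTAG00000010581, chromosome 22, 35758131 to 36020214), an inverted membrane-associated guanylate kinase of epithelial junctions, was higher in bulls. It had 5.62, 7.12 and 12.2 in the calves and 23.5, 20.6 and 16.7 in the bulls, with all bulls above all calves. MAGI1 had a log2 fold change of 1.24 (SE 0.30, limma, adjusted p = 0.0134) and 1.52 without calf 3 (adjusted p = 0.000415). The call was lost without bull 1 (1.13, adjusted p = 0.0580) or bull 2 (1.22, adjusted p = 0.0525). It was also lost after quantile normalization (0.67, adjusted p = 0.0905) and after scaling by the median of ratios (0.97). MAGI3 lay between 9.21 and 12.2 in all libraries and was not called (0.04, adjusted p = 0.864).

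The zonula occludens proteins carry claudins on their first PDZ domain. TJP1, the gene of ZO-1, had 10.7, 14.9 and 26.0 in the calves and 14.2, 12.3 and 15.5 in the bulls, so the groups overlapped and the gene was not called (−0.19, SE 0.32, limma, adjusted p = 0.636).

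TJP3 (ENSBTAG00000018342, chromosome 7, 20221723 to 20252247), the gene of ZO-3, was higher in bulls, with 1.03, 1.02 and 0.166 in the calves and 3.102, 3.02 and 2.38 in the bulls. The difference was 1.18 on the log2 scale (SE 0.26, limma, adjusted p = 0.00899) and, without calf 3, 0.92 (adjusted p = 0.00180), under the size required. After quantile normalization it was 0.27 and not called. The rise lay in the entry TJP3-203, with 0.653, 0.0815 and 0 in the calves and 2.76, 2.48 and 1.72 in the bulls. This entry was singled out after its values were seen and passed the filter only through the bulls, so it had to be higher in bulls. The entry TJP3-201 overlapped between the groups, with 0.338, 0.934 and 0.166 in the calves and 0.308, 0.456 and 0.612 in the bulls. The TJP3 locus overlaps APBA3, which lay between 3.12 and 4.52 in all libraries. TJAP1, a scaffold of the junction and the Golgi, had 6.17, 6.19 and 7.28 in the calves and 4.25, 3.40 and 4.34 in the bulls, a difference of −0.60 that was not called (adjusted p = 0.0281), and −1.15 with a call after quantile normalization. The TJAP1 locus overlaps LRRC73, which had 11.2 to 21.1 in bulls and 0.367 to 2.51 in calves. Of the 23 genes, 4 had all bulls above all calves (17.4%, where 46.1% of the genes tested did) and 6 had all bulls below (26.1%, where 21.3% did). CLDN7 and CLDN34, which are among the 4, passed the filter only through the bulls, so their separation was fixed by it.

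**Figure D4:**
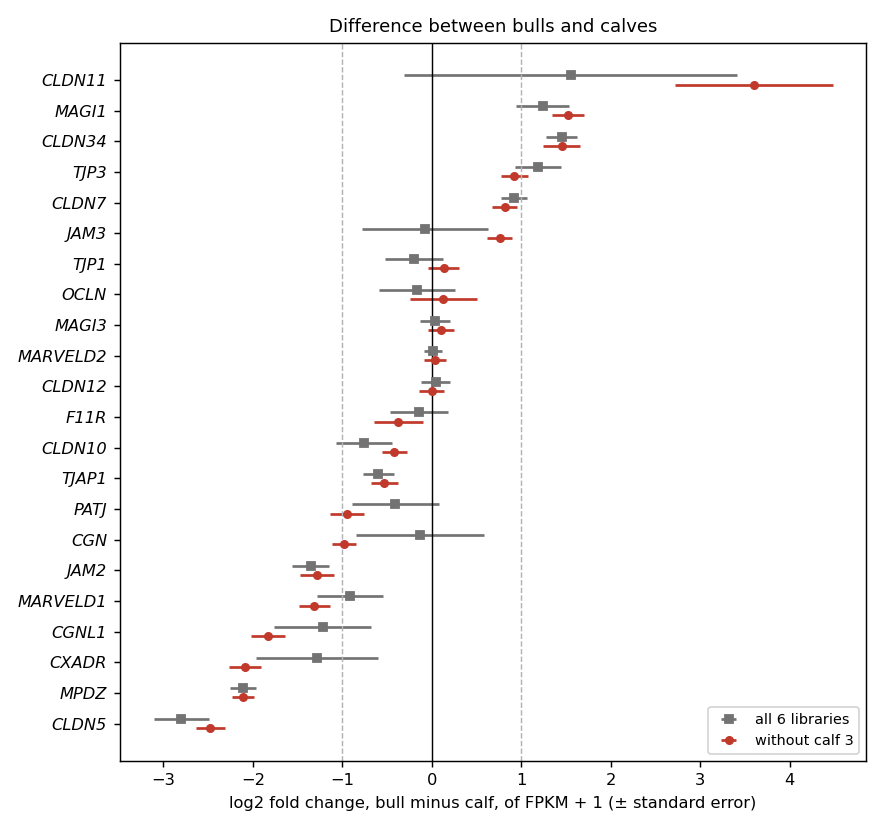
Log2 fold change, bull minus calf, of 22 of the 23 tight junction genes that passed the filter (x axis, log2 scale of FPKM + 1, bars show ± 1 SE), with all 6 libraries (squares) and without calf 3 (circles). Dashed lines mark the size required for a call. CLDN5, MPDZ, JAM2, CGNL1 and CXADR lie left of −1 in both fits, of which CGNL1 and CXADR were not called with all libraries. The bars of CLDN11, CGN, JAM3 and CXADR shorten when calf 3 is left out.

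At the level of transcripts, 110 entries belong to these genes and 29 passed the filter. Of the 29, 3 were called higher in bulls (an assembled entry of CLDN34, MAGI1-204 and TJP3-203; 34.8% of all transcripts tested were) and 8 lower (9.37% were), where 44.2% were called in either direction. Without calf 3, 5 were called higher and 11 lower, where 36.1% and 13.1% of all transcripts were, and 49.2% in either direction. Of the 29, 3 passed the filter only through the bulls (the CLDN34 entry, TJP3-203 and MAGI1-210) and 5 only through the calves, so their direction was fixed by the filter. They made 2 of the 3 calls higher and 5 of the 8 calls lower with all libraries.

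For MAGI1, the rise lay in MAGI1-204, which had 3.81, 4.64 and 3.56 in the calves and 20.3, 17.6 and 13.7 in the bulls (log2 fold change 1.85, SE 0.21, limma, adjusted p = 0.000593). This entry was called under every alternative computed, with values between 1.21 and 2.07, whereas the gene was not. MAGI1-210 had 0.746, 0.973 and 0.415 in the calves and 1.62, 1.48 and 1.81 in the bulls and was not called (0.63, adjusted p = 0.0200, with the direction fixed by the filter). Of the tested entries of CLDN5, CLDN5-201 was called lower with −2.82 (adjusted p = 0.000526). An assembled entry, which passed the filter only through the calves and so had to be lower in bulls, had −1.33 (adjusted p = 0.0154) and was not called without calf 3 (−0.99, under the size required) nor without bull 2 or bull 3 (adjusted p = 0.0624 and 0.0572).

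The genes that work with the junction but carry none of the symbols above were taken as a list of 33 symbols for polarity complexes, tricellular proteins and junction-bound regulators, 32 of which were found. Of these, 27 passed the filter, 6 were called higher in bulls and 3 lower, and without calf 3 these numbers were 9 and 5. These are 22.2% and 11.1% with all libraries and 33.3% and 18.5% without calf 3, against the shares of all genes given above. The median log2 fold change of the 27 genes was 0.49, where that of all genes tested was 0.43. YBX3, a Y-box protein that binds ZO-1 and is also abundant in spermatids, had 12.7, 12.9 and 23.8 in the calves and 465, 382 and 355 in the bulls (4.57, SE 0.28, limma, adjusted p = 5.49e-05). SYMPK, symplekin, had 6.48, 8.38 and 9.74 in the calves and 45.3, 42.0 and 43.3 in the bulls (2.29, adjusted p = 0.000128). CRB1, of the Crumbs complex, had 0.880, 0.477 and 3.49 against 13.7, 5.44 and 9.54 (2.11, adjusted p = 0.0142), and its call was lost without bull 1 (adjusted p = 0.0562) or bull 3 (adjusted p = 0.0542). Without calf 3, YBX3 had 4.85, SYMPK 2.41 and CRB1 2.58.

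Among the partners that were lower, LLGL1, a gene of basolateral polarity, had 11.5, 10.7 and 35.1 in the calves and 2.87, 3.29 and 2.83 in the bulls (−2.12, limma, adjusted p = 0.00870, and −1.60 without calf 3). AMOT, angiomotin, which binds PATJ, had 5.68, 6.29 and 15.3 in the calves and 1.49, 1.78 and 2.11 in the bulls (−1.73, adjusted p = 0.00887, and −1.33 without calf 3). LIN7C had 20.5, 21.1 and 27.1 against 10.98, 11.2 and 10.4, a difference of −1.001 on the log2 scale (adjusted p = 0.00277) that fell under the size required without calf 3 (−0.88) and without bull 3 (−0.97). All calves lay above all bulls in these 3 genes.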

How the data were processed

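The deposited tables give FPKM per gene and per transcript, computed by the authors for each of the 6 libraries. According to the study's methods, ribosomal reads were removed with Bowtie2, the others mapped with TopHat2 and transcripts assembled with StringTie. The methods name Cuffdiff and Ballgown for circRNAs, and the tool that made the gene and transcript FPKM values used here is not given in the sources used here. The methods name UMD3.1.1, but all 41 members lay on the locus of the same symbol in RefSeq's ARS-UCD2.0, so positions are printed as the tables give them.

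Members were the rows whose symbol matched a fixed pattern. Members and lists were chosen with earlier results of these data known. Values were analysed as log2(FPKM + 1), with rows of at least 1 FPKM in at least 3 libraries kept (18115 genes, 23212 transcripts). The comparison used limma 3.58.1 in R 4.3.3 (two-sided, mean-variance trend), with Benjamini-Hochberg adjustment over all rows tested.  The script was tested on simulated data. Without counts, the depth behind an FPKM is unknown. The sums of FPKM over genes lay between 587066 (calf 3) and 1098715 (calf 2).

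Every member that passed the filter was named with its values (1 member and its transcripts are not reported here but stay in the counts), others if any library reached an FPKM of 1, transcripts where a member had at least 2 tested entries and 1 called, and the 3 partners with the largest called rise and fall. Other genes and entries named (CLDN3, CLDN10-202, TJP3-203 and PATJ-201 among them) were singled out after their values were seen. The alternatives were another pseudocount (0.1), no filter, quantile normalization, median-of-ratios scaling, a replicate block and each library left out in turn. A pair of further alternatives, each with calf 3 left out, was added after seeing the data.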

Additional observations from a re-analysis of the deposited data

How the results depend on the processing

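CLDN5, MPDZ and JAM2 kept their call under all 13 alternatives, with log2 fold changes between −3.52 and −2.48, −2.88 and −2.09, and −1.99 and −1.27. Quantile normalization, which shifted the median of all genes by −0.69, called 0 members higher by limma (1 at an unadjusted p under 0.05) and 9 lower, and with calf 3 left out 1 and 11. Member transcripts were then 1 higher and 13 lower (21.6% and 25.3% of all transcripts), and 15 lower with calf 3 left out (28.7% of all). Of the 27 partners tested, 3 were higher and 8 lower (21.1% and 25.1% of all genes), with 8 lower also when calf 3 was left out (29.1% of all). Median-of-ratios scaling called 6 partners lower (13.6% of all genes). Without the filter and calf 3, 7 members and 5 partners were lower (6.22% of all genes). With each library left out in turn, members called ranged from 2 to 4 higher and 3 to 6 lower, member transcripts from 3 to 5 and 6 to 11, and partners from 5 to 9 and 3 to 5, with the highest count without calf 3, except for members called higher, whose 4 were without calf 2. Of all genes tested, 33.3% to 37.9% were then called higher and 6.72% to 13.6% lower. For all transcripts these shares were 32.3% to 36.1% and 6.43% to 13.1%.

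Directions that turned belong to genes not called with all libraries. With each library left out in turn, log2 fold changes ranged from −0.30 to 3.60 for CLDN11, −0.37 to 0.12 for F11R, −0.98 to 0.35 for CGN, −0.56 to 0.76 for JAM3, −0.47 to 0.13 for TJP1, 0.00 to 0.11 for CLDN12, −0.05 to 0.11 for MAGI3 and −0.52 to 0.13 for OCLN. Quantile normalization gave −0.12 for CLDN7, −0.92 for MARVELD2, −0.60 for CLDN12, −0.49 for MAGI3 and −0.23 for MAGI1-210, and with calf 3 left out −0.27, −0.86, −0.60, −0.45 and −0.25, and 0.19 for JAM3. Median-of-ratios scaling gave −0.14 for MARVELD2, −0.18 for CLDN12 and −0.23 for MAGI3. Without the filter and calf 3, JAM3 had 0.76, TJP1 and OCLN 0.13 and CLDN12 0.00. The cause was not tested.

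The labels number the animals 1 to 3 in both groups. Deviations of same-numbered animals from their group means correlated at 0.0277, 0.0246 and 0.0341 over genes, so the numbers were not taken as pairs, although each library correlated best with its own number, a hint from the data and not from the design. With the replicate block, 3 members were called higher and 4 lower, 3 and 8 transcripts, and 6 and 3 partners, as without it. Depth limits the claudins below an FPKM of 1, for which no count is known.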

Other observations

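CLDN11 was among the genes in which calf 1 and calf 2 differed most. By the size of the difference, 3.31 on the scale of log2(FPKM + 1), it ranked 22 of the 18115 genes tested, of which 72 lay at least 4-fold apart between these calves. Of the other tight junction genes tested, none lay 2-fold apart, and between any pair of bulls 1 did, OCLN. The table has a single transcript entry for CLDN11, and the locus overlaps no other row.

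Several of these genes lie side by side in the genome and differed in level. OCLN and MARVELD2 are 41.1 kb apart on chromosome 20 and were the only tested neighbours. CLDN1 lies 104 kb from CLDN16 on chromosome 1, and CLDN16 did not exceed 0.0363 in any library where CLDN1 reached 8.26 in calf 1. CLDN9 and CLDN6 are 0.772 kb apart on chromosome 25, and CLDN9 was at 0.565 to 1.89 in the bulls against at most 0.0380 for CLDN6. CLDN4 and CLDN3 (28.7 kb) and CLDN8 and CLDN17 (57.9 kb) were all below an FPKM of 1.

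Entries singled out after their values were seen showed shifts that the gene sums do not. MAGI1-201 made 55.9% of the MAGI1 entries in calf 3 (FPKM 6.81) and at most 0.0796% elsewhere. PATJ-201 made 74.2% and 91.5% of the PATJ entries in calf 1 and calf 2 and 29.1%, 26.1% and 42.1% in the bulls, and its FPKM was 6.18, 5.05 and 1.39 in the calves and 0.840, 0.793 and 1.36 in the bulls. Leaving out calf 3, PATJ-201 fell by 1.73 on the log2 scale (limma, adjusted p = 0.000957), and with calf 3 it was not called (−1.25, adjusted p = 0.0567).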
